A study of Arabidopsis thaliana with 6 samples.

Results

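Photorespiration recovers carbon from 2-phosphoglycolate, the product that forms when Rubisco fixes oxygen in place of carbon dioxide. The route crosses 3 compartments of a leaf cell. Glycolate made in the chloroplast is oxidised and aminated to glycine in the peroxisome, glycine is turned into serine in the mitochondrion, and serine returns through the peroxisome to the chloroplast as glycerate. The 10 genes described here encode enzymes of this route. They were taken by identifier from the 33557 genes of the table, one or a few genes per enzyme: PGLP1, GOX1, GOX2, GGT1, GLDP1, GLDT, SHM1, AGT1, HPR1 and GLYK. All 10 were found and all 10 had been tested by the authors, with no filter on low values.

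Levels came from Arabidopsis thaliana seedlings of the Ler ecotype, either wild type or carrying phyA-1, a mutation in the gene of the far-red photoreceptor phytochrome A. Both genotypes spent 4 days in the dark followed by 3 hours of far-red irradiation, and each gave 3 libraries of polyadenylated RNA described as independent biological replicates. Neither genotype was sampled in darkness alone, so what light changed and what differed before it cannot be told apart. Each level is the authors' single pooled FPKM value of a genotype (fragments per kilobase of transcript, scaled to the mapped fragments of the library), without a spread between replicates and with unknown depth. PHYA itself was at 167 FPKM in wild type and at 16.0 in the mutant, in the direction of the labels, so its transcript was reduced and not lost. Of 8 marker genes of root and shoot apex, none was called, beside 17.2% of all tested genes called in either direction. The root factor SCR, the highest of them, had 32.1 FPKM in wild type and 26.9 in phyA-1. Whether the organ make-up differed was not tested. PLT1, WUS and CLV3 were below 1 FPKM in both genotypes.

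Transcripts of the photorespiratory enzymes were lower in phyA-1 at most steps of the route. A gene is called here when its q-value in the authors' deposited table is 0.05 or below, and "fell" and "rose" mean called lower and called higher in phyA-1. By this rule 8 of the 10 genes fell, none rose, and PGLP1 and GLYK were not called. The background of the same rule over 22892 tested genes was 8.54% lower and 8.61% higher, 17.2% in all. The genes other than PGLP1 are abundant, and among the 1849 tested genes with a mean level at or above that of GLYK (84.5 FPKM) 12.8% were called lower and 13.9% higher. The 10 log2 ratios of phyA-1 over wild type, computed after adding 1 FPKM to each level, ran from -2.21 to -0.12 with a median of -1.15. The median over all tested genes was 0.05. Summed over the 10 genes, the level was 2121 FPKM in wild type and 916 in phyA-1, which is 43.2% of wild type. Over all tested genes the FPKM sum in phyA-1 was 163.7% of wild type. Without the 10 highest genes of the table, phyA-1 levels times 0.98 gave the wild-type total. In RNA of seedlings, fewer cells making these transcripts and less transcript per cell cannot be told apart.

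**Figure D1:**
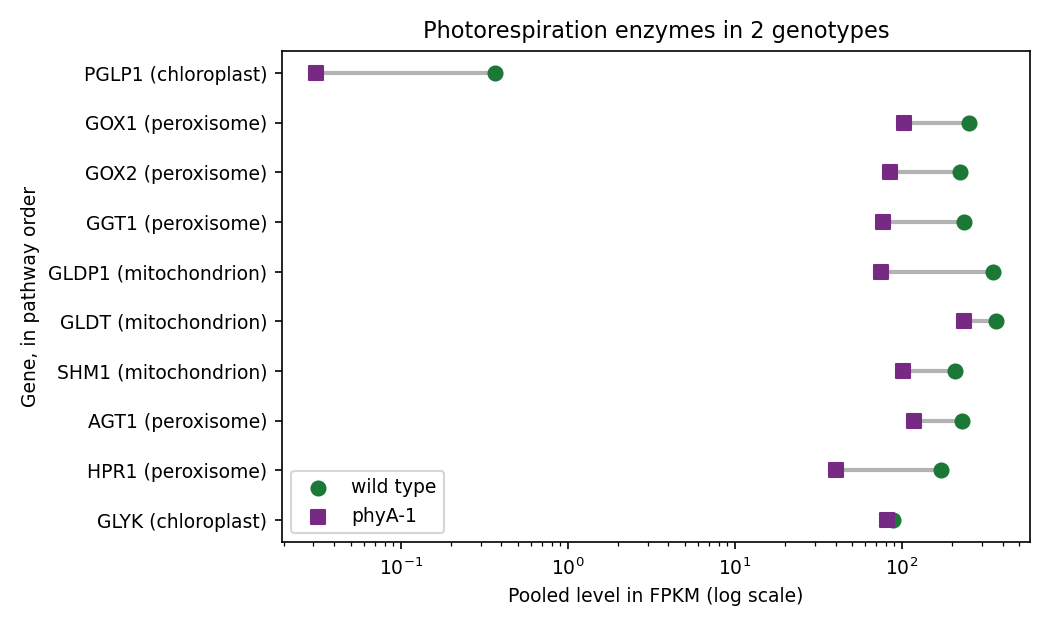
Pooled level of each photorespiratory gene in wild type (green circles) and phyA-1 (purple squares), on a log scale of FPKM, in pathway order with the compartment of each enzyme. The 8 genes that fell lie between 171 and 364 FPKM in wild type and between 40.3 and 235 FPKM in phyA-1, GLYK differs little, and PGLP1 lies below 1 FPKM in both.

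All 8 calls had q = 0.00045 in the authors' deposited table. That value belongs to the smallest p-value the table gives, 5e-05, which 1668 genes share, so the q-values do not rank the 8 genes. By size of the log2 ratio they lay within the lowest 5.84% of all tested genes. GLDP1, at the 0.494th percentile, was the lowest of them.

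The members' calls were compared under 4 other rules, and the same 8 genes fell under each. For these 8 that outcome was fixed in advance and is no check of the calls. All share the smallest p-value, have means above 1 FPKM and lie in no shared locus. At a q-value of 0.01 in the authors' deposited table, 6.52% of tested genes were called lower. With the deposited p-values readjusted by the Benjamini-Hochberg method over all tested genes, the backgrounds lower and higher were 8.02% and 7.49%, and over genes with a mean of at least 1 FPKM 9.25% and 8.89%. Among loci that hold 1 gene they were 8.81% and 9.60%. None of the 10 members overlaps another locus of the table.

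The first enzyme of the route, 2-phosphoglycolate phosphatase, acts in the chloroplast and is encoded by PGLP1 (AT5G36700, TAIR10 chromosome 5, 14421576 to 14424511). PGLP1 was listed at 0.368 FPKM in wild type and 0.0311 in phyA-1. The authors' deposited table gives it q = 0.444. It was the lowest member in both genotypes. A second gene, AT5G36790 (chromosome 5, 14480874 to 14483814), was listed at 0.664 and 0.248 FPKM. RefSeq names its product a haloacid dehalogenase-like hydrolase superfamily protein. In the authors' deposited table its q-value is 0.0524. The coding sequences of these genes are identical over all 1089 bases in the reference assembly TAIR10.1, which is of the Columbia accession and not of Ler. Their first 60 coding bases, read from that assembly, are shown because the copies carry the same letters:
PGLP1 (minus strand, chr5:14424371-14424430): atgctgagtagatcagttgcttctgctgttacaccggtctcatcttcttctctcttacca
AT5G36790 (minus strand, chr5:14483671-14483730): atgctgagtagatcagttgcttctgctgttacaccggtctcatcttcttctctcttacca
No base in this stretch is in capitals, since capitals would mark a difference.

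The identity reaches beyond the coding part. Of 1627 windows of 50 bases within the annotated exons of PGLP1, 0 occur only once in the assembly, and of 1304 windows of 100 bases also 0. The counts for AT5G36790 were 0 of 1494 and 0 of 1121. By contrast, every 50-base window in the coding exons of the other members occurs once, except 5 of the 2428 windows of GLDP1. The sources used here do not give the read length or the treatment of reads that map to several places. The part of these shared windows in the near-0 values of PGLP1 and AT5G36790 was not tested. The log2 ratio of PGLP1 counts in the median of the 10 genes, and without it the median of the other 9 was -1.28.

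Glycolate oxidase, the peroxisomal enzyme that oxidises glycolate to glyoxylate and releases hydrogen peroxide, is encoded by neighbouring genes. GOX2 (AT3G14415, chromosome 3, 4818298 to 4821006) and GOX1 (AT3G14420, 4821523 to 4824178) lie on the same strand with 516 bases between them. GOX1 had 253 FPKM in wild type and 103 in phyA-1, a log2 ratio of -1.28. GOX2 had 222 and 84.4 FPKM, a log2 ratio of -1.38. Both thus kept about the same proportion of their wild-type level, 40.8% for GOX1 and 38.1% for GOX2. GOX1 made up 53.3% of their summed level in wild type and 55.0% in phyA-1. Their coding sequences are 90.9% identical. The first 120 coding bases of each, with differing bases in capitals, show how far apart the copies are:
GOX1 (plus strand, chr3:4821804-4821923): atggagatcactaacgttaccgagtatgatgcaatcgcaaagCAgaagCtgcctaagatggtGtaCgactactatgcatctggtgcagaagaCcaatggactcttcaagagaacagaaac
GOX2 (plus strand, chr3:4818667-4818786): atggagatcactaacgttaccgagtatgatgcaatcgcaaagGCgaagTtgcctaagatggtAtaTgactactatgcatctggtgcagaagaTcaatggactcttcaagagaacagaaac
There are 6 differing bases in the stretch, and no 50-base window within a coding exon of either gene is repeated exactly in the assembly. Windows across exon junctions were not examined. Reads that match with mismatches allowed could still fit both, which was not tested. The related genes GOX3, HAOX1 and HAOX2 were not called. GOX3 had 25.3 FPKM in wild type and 26.6 in phyA-1, HAOX1, whose locus is shared with another gene, 5.19 and 7.69, and HAOX2 9.80 and 11.5.

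Glyoxylate is aminated to glycine by aminotransferases of the peroxisome. GGT1 (AT1G23310, chromosome 1, 8268404 to 8271933), which uses glutamate as amino donor, had 235 FPKM in wild type and 76.7 in phyA-1, a log2 ratio of -1.60. Its relative GGT2 also fell, from 17.1 to 10.9 FPKM (-0.61). GGT1 supplied 93.2% of the summed level of the 2 genes in wild type and 87.5% in phyA-1. AGT1 (AT2G13360, chromosome 2, 5539240 to 5541358), listed as AGT in RefSeq, uses serine as donor and so links this step to the return of serine from the mitochondrion. It had 229 and 118 FPKM, a log2 ratio of -0.95, and kept 51.7% of its wild-type level against 32.6% for GGT1.

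In the mitochondrion, glycine decarboxylase converts glycine with the release of carbon dioxide and ammonia, through subunits named P, H, T and L. GLDP1 (AT4G33010, chromosome 4, 15926670 to 15931332) encodes a P protein, the subunit that removes the carboxyl group. It had 351 FPKM in wild type and 75.1 in phyA-1, a log2 ratio of -2.21 and the largest fall of the 8. GLDT (AT1G11860, chromosome 1, 4001113 to 4003442), for the T protein that passes the carbon unit to tetrahydrofolate, had 364 and 235 FPKM. Its log2 ratio of -0.63 was the smallest among the 8 that fell. The genes for these subunits of one complex, near in level in wild type, thus kept 21.4% and 64.7% of it in phyA-1. Whether the falls of GLDP1 and GLDT differ was not tested, since no replicate values were used.

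The second P protein gene, GLDP2, fell from 98.3 to 52.1 FPKM (-0.90). Of the genes for the H protein, which carries the intermediate between the other subunits, GDCH (AT2G35370) fell from 205 to 148 FPKM and AT1G32470, whose locus is shared, from 245 to 171. AT2G35120, the third, was not called at 103 FPKM in wild type and 111 in phyA-1. The L protein, lipoamide dehydrogenase, is shared with other mitochondrial complexes. Its gene mtLPD1 fell from 136 to 90.4 FPKM (-0.58), and mtLPD2 was not called at 75.9 and 73.1. Summed per subunit, P protein transcripts went from 449 to 127 FPKM, or 28.3% of wild type. The sums were 64.7% of wild type for T, 77.9% for H and 77.2% for L. The summed level of H over that of P was 1.23 in wild type and 3.39 in phyA-1, and that of T over P was 0.81 and 1.85. These sums and ratios carry no error and were not tested.

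**Figure D2:**
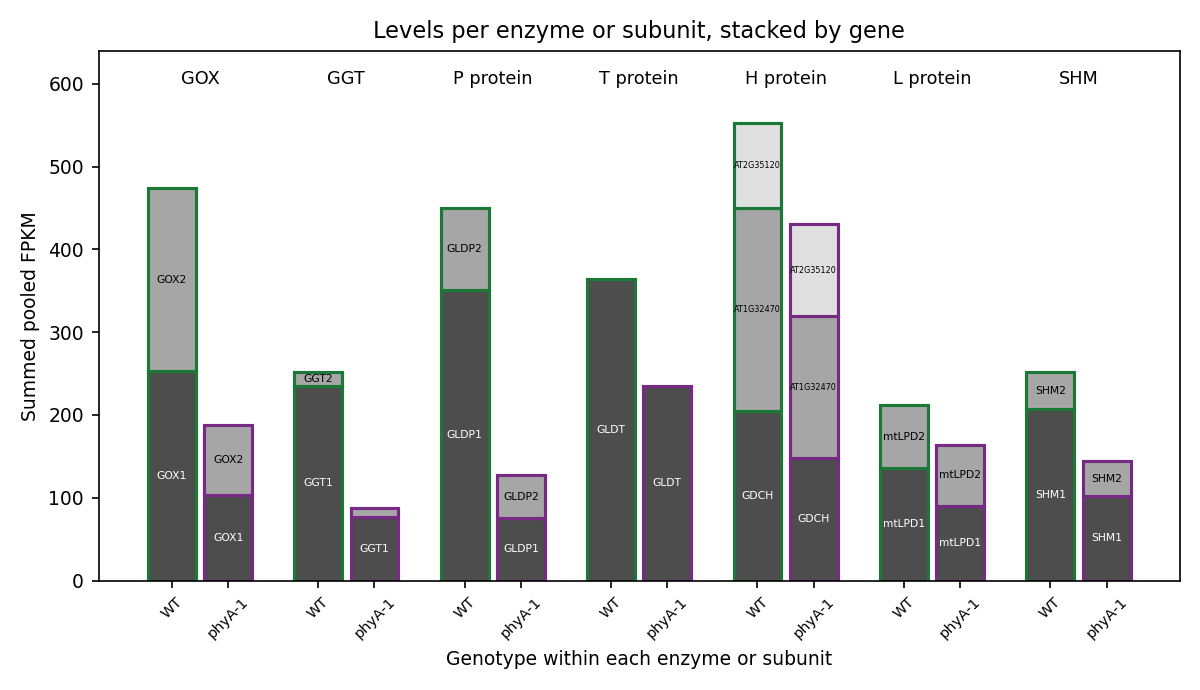
Pooled FPKM summed over the genes of each enzyme or subunit, stacked by gene, in wild type (WT, green outline) and phyA-1 (purple outline); the unlabelled segment on GGT1 in phyA-1 is GGT2. In phyA-1 the summed transcript level of the P protein is 28.3% of its wild-type sum. That of glutamate:glyoxylate aminotransferase (GGT) is 34.7% and that of glycolate oxidase (GOX) 39.5%. For the H and L proteins the transcript sums are 77.9% and 77.2%. These sums were not tested.

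Serine hydroxymethyltransferase joins the carbon unit from one glycine to another to give serine. SHM1 (AT4G37930, chromosome 4, 17831731 to 17834927), the mitochondrial form known to be needed for photorespiration, had 207 FPKM in wild type and 102 in phyA-1, a log2 ratio of -1.02. SHM2 was not called at 44.2 and 42.2 FPKM, nor were SHM3 at 21.6 and 18.9 or SHM4 at 329 and 247. For SHM4 the authors' deposited table gives q = 0.063. SHM1 made up 82.4% of the sum of SHM1 and SHM2 in wild type and 70.7% in phyA-1.

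Serine re-enters the peroxisome, where AGT1 turns it into hydroxypyruvate and HPR1 reduces that to glycerate. HPR1 (AT1G68010, chromosome 1, 25493196 to 25495988), listed as HPR in RefSeq, had 171 FPKM in wild type and 40.3 in phyA-1. Its log2 ratio of -2.06 was the second lowest of the 10, and it kept 23.5% of its wild-type level. AT1G79870, listed here as HPR2, a cytosolic hydroxypyruvate reductase of the same broad family, was not called at 71.8 and 69.4 FPKM. HPR1 was thus the more abundant of that pair in wild type and the less abundant in phyA-1, a change that was not tested. The summed level of the pair in phyA-1 was 45.1% of that in wild type. HPR3 was not called either, at 2.58 and 3.46 FPKM.

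GLYK (AT1G80380, chromosome 1, 30217116 to 30220004) encodes glycerate kinase, which phosphorylates glycerate in the chloroplast as the last step of the cycle. It had 88.1 FPKM in wild type and 81.0 in phyA-1, a log2 ratio of -0.12. The authors' deposited table gives it q = 0.62. It kept 92.0% of its wild-type level. Sorted by compartment, all 5 peroxisomal genes fell (median log2 ratio -1.38) and all 3 mitochondrial genes fell (-1.02), whereas neither of the 2 chloroplast genes was called. Whether the compartments differ was not tested. One of these 2 is PGLP1, whose level is uncertain, so among the members the chloroplast steps rest on GLYK alone. Of the chloroplast and envelope genes for transport and recycling described below, GLU1, GS2, DiT1 and LrgB fell. GLU2, DiT2.1, DiT2.2 and AT4G22840 were not called. Of 20 Calvin cycle genes 17 fell, beside 8.54% of all tested genes.

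The order of levels changed between the genotypes. In wild type GLDT and GLDP1 were the most abundant, followed by GOX1, GGT1, AGT1, GOX2, SHM1, HPR1, GLYK and PGLP1. In phyA-1 GLDT was again first, AGT1 moved from rank 5 to 2 and GLYK from 9 to 6, while GLDP1 went from rank 2 to 8. Leaving out PGLP1, the highest level was 4.13 times the lowest in wild type and 5.84 times in phyA-1. With pooled values alone, neighbours in either order cannot be shown to differ.

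Outside the 10 genes, the pathway was described through other isoforms and subunits, and through transport and recycling steps. Of 17 isoform and subunit genes, 5 fell, none rose and 12 were not called, with a median log2 ratio of -0.07. The 5 are GGT2, GLDP2, GDCH, AT1G32470 and mtLPD1, given above. Of 14 genes of transport and recycling, 7 fell, none rose and 7 were not called (median -0.44). Over all tested genes 8.54% fell and 8.61% rose.

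BOU, a mitochondrial carrier known to be needed for photorespiration, had 40.0 FPKM in wild type and 12.9 in phyA-1 (log2 ratio -1.56). GLU1, the ferredoxin-dependent glutamate synthase that takes up photorespiratory ammonia with the glutamine synthetase GS2, had 81.4 and 30.9 FPKM (-1.37), and GS2 474 and 326 (-0.54). Its relative GLU2 was not called at 65.0 and 62.4 FPKM. Among carriers of the chloroplast envelope, DiT1, a 2-oxoglutarate and malate translocator, fell from 203 to 109 FPKM. LrgB (AT1G32080), known as the glycolate and glycerate translocator PLGG1, fell from 54.7 to 32.3. The other 3 envelope carriers of the list were not called, with DiT2.1 at 53.0 FPKM in wild type and 41.7 in phyA-1, DiT2.2 at 12.3 and 15.1, and AT4G22840 at 9.34 and 9.08. CAT2, the catalase that removes hydrogen peroxide of glycolate oxidation in leaves, fell from 375 to 233 FPKM, whereas CAT3, at 2552 in wild type and 3363 in phyA-1, and CAT1, at 24.0 and 23.7, were not called. PMDH2, a peroxisomal malate dehydrogenase that supplies reducing power for hydroxypyruvate reduction, fell from 95.9 to 60.9 FPKM, and PMDH1 was not called at 64.4 and 78.6. For none of these gene pairs was the difference between the members tested.

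Peroxisomes of seedlings also house the breakdown of seed oil, by beta-oxidation and the glyoxylate cycle. Of 14 genes of those pathways none fell, 7 rose and 7 were not called, with a median log2 ratio of 0.37. Isocitrate lyase (ICL) had 306 FPKM in wild type and 707 in phyA-1, malate synthase (MLS) 53.5 and 100.4, and the beta-oxidation protein gene MFP2 74.3 and 107. Of 16 genes of peroxisome biogenesis, 2 fell, none rose and 14 were not called (median 0.04, or -0.03 when all ratios are centred on the median of expressed genes). Over all tested genes 8.54% fell and 8.61% rose, and 2 of 16 biogenesis genes is near the share that fell. PEX14, a component of the import machinery whose locus is shared, had 46.8 FPKM in wild type and 35.9 in phyA-1 and, in the authors' deposited table, q = 0.046.

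Of 20 genes of the Calvin cycle, which takes up the glycerate as 3-phosphoglycerate, 17 fell, none rose and 3 were not called, beside 8.54% of all tested genes that fell. Their median log2 ratio of -0.95 stood beside -1.15 for the photorespiratory genes. The largest falls there were those of CP12-2 (-2.42), FBA1 (-1.95) and RBCS1B (-1.67). RBCS1B belongs to a gene family, and whether reads were shared among its copies was not tested. Within a list, every gene shares the same libraries, and no test of the lists against each other was made.

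**Figure D3:**
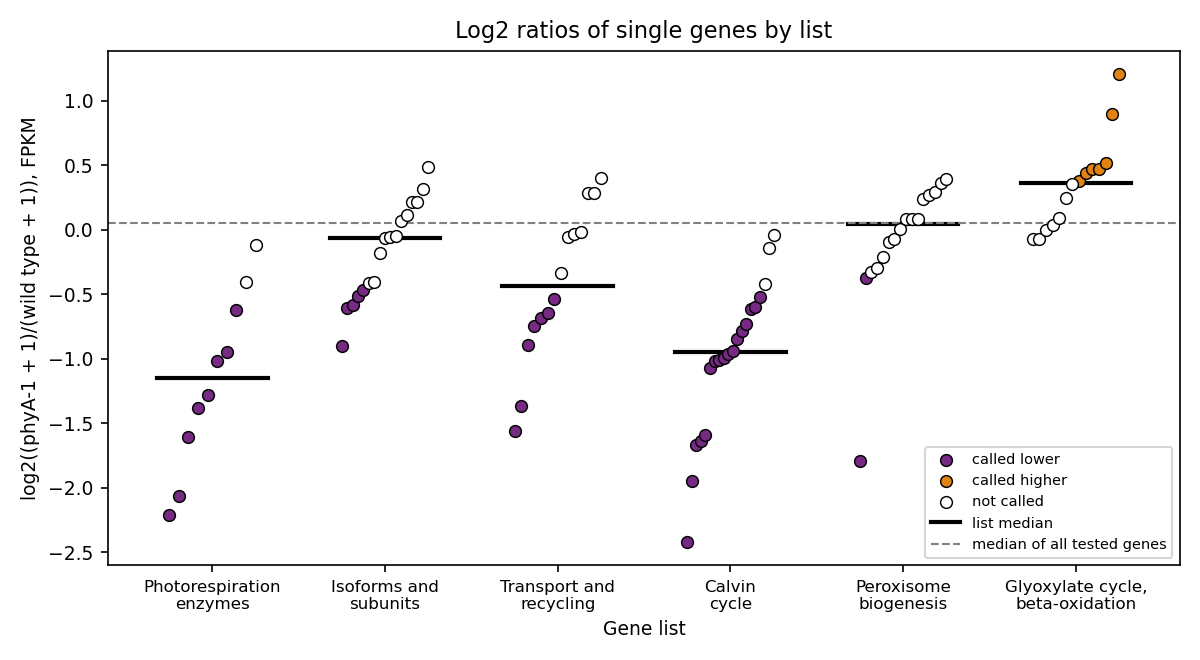
Log2 ratio of phyA-1 over wild type, after adding 1 FPKM, for every gene of 6 lists, sorted within each list. Filled points were called lower (purple) or higher (orange), open points were not called, bars are list medians, and the dashed line is the median of all tested genes (0.05). The photorespiratory genes have a median of -1.15 and the glyoxylate cycle and beta-oxidation genes one of 0.37.

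Because 8 of the genes fell together, the 250 bases before each annotated gene start were searched in TAIR10.1 on both strands for sequences that light-related factors are known to bind. These were the G-box CACGTG, the shorter core ACGT, which the G-box contains, and the I-box GATAAG. The G-box lay before 2 of the 10 members, GLDP1 and GGT1, and in 6.46% of the windows of all 27561 protein-coding genes examined. The ACGT core lay before 4 members, which are GLDP1, GGT1, HPR1 and PGLP1, and in 44.0% of all windows. The I-box lay before none, and in 12.3% of all windows. The upstream windows of GLDP1 and GGT1, and the last 100 bases before HPR1, are shown with the matches in capitals, since these genes had the 3 lowest log2 ratios:
GLDP1 (minus strand, chr4:15931423-15931672): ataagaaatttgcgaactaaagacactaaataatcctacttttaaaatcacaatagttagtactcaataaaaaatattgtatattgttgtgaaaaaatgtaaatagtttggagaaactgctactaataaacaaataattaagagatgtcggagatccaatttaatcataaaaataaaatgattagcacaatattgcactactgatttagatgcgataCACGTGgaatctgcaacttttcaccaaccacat
GGT1 (minus strand, chr1:8272022-8272271): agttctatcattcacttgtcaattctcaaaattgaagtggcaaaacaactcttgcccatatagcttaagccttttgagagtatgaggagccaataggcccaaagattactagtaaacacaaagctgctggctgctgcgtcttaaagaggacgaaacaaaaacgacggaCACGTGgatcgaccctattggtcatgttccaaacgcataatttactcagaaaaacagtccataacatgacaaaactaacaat
HPR1 (plus strand, chr1:25493093-25493192): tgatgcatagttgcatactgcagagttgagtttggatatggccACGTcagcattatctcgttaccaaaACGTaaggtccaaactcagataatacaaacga
Counted from the TAIR10.1 gene start, the G-box of GLDP1 spans bases 33 to 28 before it and that of GGT1 bases 82 to 77. In HPR1 the ACGT cores begin 57 and 32 bases before that start. For all 3 genes the TAIR10.1 start lies upstream of the deposited locus printed above. Of deposited locus starts 39.0%, and of ends 38.6%, equal those of TAIR10.1. A match is a description of these letters and not a binding site. The 2 G-boxes before GOX3 and the 1 before HAOX2, genes that were not called, and the 1 before GGT2, which fell, go with different outcomes. Among the isoform and subunit genes the I-box lay only before GLDP2, which fell, at bases 233 to 228 before its start. GOX1, GOX2, AGT1, GLDT and SHM1, which fell, have none of the 3 sequences in this window. The window of SHM1 overlaps 3 annotated exon records and those of HPR1, PGLP1 and GLYK overlap 1 each. These windows are thus partly transcribed sequence. Exon records are listed per transcript and were not merged, so 3 records need not be 3 separate exons. The windows of GOX3, HAOX2 and GGT2 also overlap exons, whereas the stretches printed above overlap none.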

How the data were processed

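Polyadenylated RNA from 6 libraries, 3 per genotype, was sequenced by the authors, who deposited 1 table comparing the genotypes. Per the submitters' processing notes, Bowtie and the TAIR10 build were used. For the estimator, its test and any library scaling beyond the FPKM unit itself, nothing is given in the sources used here. Columns of the table, deposited without a header, were identified from order and values. The authors deposited a pooled FPKM value per gene and genotype. Their deposited log2 column, wild type relative to the mutant, matched the ratio of both FPKM columns to within 0.001 in 99.97% of its finite entries. The authors' deposited test score was not used, and their p-value and q-value were taken as given, the yes column of the table being q of 0.05 or below in all 22892 tested genes. Depth per library is unknown, and no spread between replicates could be computed.

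From these values, log2((phyA-1 FPKM + 1)/(wild type FPKM + 1)) was computed with Python 3.11.15 and pandas 2.3.3, a scale that understates changes of low genes. Deposited starts count from 0 and are printed plus 1. All 100 listed genes matched RefSeq identifiers of TAIR10.1, whose names and sequences were used. Coding sequences (the longest reading frame per gene) were aligned with Biopython 1.88. Benjamini-Hochberg adjustment was tested on simulated data. Planned protein comparisons were not analysed here. The members and lists were chosen with earlier results of these data known. Named were all members, PHYA, every called gene of the isoform, transport and biogenesis lists and, of other lists, up to 3 called genes per direction or else the gene with the highest mean. Other isoforms and marker genes were named after their values were seen. One called gene of the biogenesis list is not reported here.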

Additional observations from a re-analysis of the deposited data

How the results depend on the processing

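The same 8 members were called lower under all 5 call rules tried: the deposited q-value at 0.05 and at 0.01, a Benjamini-Hochberg adjustment of the deposited p-values over all tested genes or over those with a mean of at least 1 FPKM, and without shared loci. For these 8 the outcome was fixed by their smallest p-value, their levels above 1 FPKM and their unshared loci. No member was called higher under any. At a q-value of 0.01, 1492 of the 22892 tested genes were called lower and 1144 higher. Called lower at 0.01 were 3 of 17 isoform and subunit genes and 1 of 16 biogenesis genes. Called higher were 3 of 14 glyoxylate cycle and beta-oxidation genes. The other 3 rules also left 1 biogenesis gene lower, and PEX14 lies in a shared locus. With pseudocounts of 0.1 and 5, centring on the median (0.07) or rescaling phyA-1 by 0.98 from totals without the 10 highest genes, the median log2 ratio of the members stayed between -1.34 and -1.12. Among the members' ratios only that of PGLP1 moved by more than 1.5 times, to -1.84 with a pseudocount of 0.1. The median of the peroxisome biogenesis genes ran from -0.03 to 0.04 and so has no stable sign. Leaving out a library was not run, since the table pools them. No paired analysis was possible because the table gives no value per library. Depth is unknown, so what it limits cannot be given.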
